A study of Mus musculus with 6 samples.

Results

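The immunoglobulin gene segments were followed across 6 RNA-seq libraries of mouse striatum, a basal ganglia region that receives cortical input. They were taken as all genes with the GENCODE M21 biotype of an immunoglobulin V, D, J or C gene, matched by Ensembl identifier, which gave 264 of the 55335 genes in the files. Of these, 218 were V, 19 were D, 14 were J and 13 were C (constant) genes. The heavy-chain locus Igh on chromosome 12 held 144, the kappa light-chain locus Igk on chromosome 6 held 108, and the lambda light-chain locus Igl on chromosome 16 held 12. The biotype uses no measured value, but the class was taken up because 1 member, Igkv1-117, had a small p in the comparison of the groups. The difference between the groups is therefore described here and is not used as evidence. The samples were 3 control C57 mice, labelled wild type, and 3 C57 mice labelled as overexpressing PDE5A, an enzyme that breaks down cyclic GMP. The sources used here do not give age, sex or how the overexpression was brought about, and nothing in the labels says whether a sample came from 1 animal.

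An antibody is built of heavy and light chains. In a developing B cell, DNA recombination joins a V, a D and a J segment at the heavy-chain locus and a V and a J segment at a light-chain locus, and each B cell clone keeps its own choice. The joined V region is spliced to a constant gene, and the heavy-chain constant gene names the class, IgM and IgD first and, after class switching, IgG, IgA or IgE. Plasma cells, the antibody-secreting descendants of B cells, carry very large amounts of these messages. In bulk tissue, more cells of a type cannot be told apart from more RNA per cell.

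Library totals ran from 33013698 to 42288789 counts. Pde5a had 156 to 246 counts in the control libraries and 22170 to 30018 in the overexpression libraries, so each library was on the side its label gives. The striatal neuron marker Ppp1r1b (DARPP-32) lay between 991 and 1907 CPM in every library. Overexpression replicates 1 and 2 stood apart in choroid plexus genes: the thyroid hormone carrier Ttr had 19000 and 74557 counts there and 843 to 2032 in the other 4 libraries. Results that rest on them are given per library, and the summed levels also without them.

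Each library with many kappa counts had a different leading V segment, and the germline exons of these leaders, with the lambda segment Iglv1 and the heavy-chain segment Ighv1-80, are shown so that they can be told apart. The sequences are the coding part of the V exon in GENCODE M21 transcripts (build GRCm38), written 5′ to 3′ on the gene's own strand and opening with the last bases of the leader or, in longer exons, cut to the last 300 bases. Capitals run from the conserved cysteine codon, found as the last match to TANTNNTGN (a pattern 213 of 218 V exons hold) on the gene's strand, to the end of the germline segment, which is the stretch that opens the third complementarity-determining region. Igkv4-80 (chr6:69016558-69016856, minus strand) led in control replicate 3, Igkv9-120 (chr6:68050159-68050456, plus strand) in overexpression replicate 1, Igkv6-25 (chr6:70215660-70215957, plus strand) in replicate 2 and Igkv10-96 (chr6:68631963-68632260, minus strand) in replicate 3. Iglv1 is at chr16:19085017-19085316 and Ighv1-80 at chr12:115912344-115912643, both on the minus strand.
Igkv4-80: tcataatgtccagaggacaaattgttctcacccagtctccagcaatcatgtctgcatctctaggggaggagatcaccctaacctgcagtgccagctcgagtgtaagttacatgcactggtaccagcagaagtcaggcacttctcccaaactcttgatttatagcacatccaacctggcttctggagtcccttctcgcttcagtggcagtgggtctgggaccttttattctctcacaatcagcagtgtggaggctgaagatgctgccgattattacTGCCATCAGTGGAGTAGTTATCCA
Igkv9-120: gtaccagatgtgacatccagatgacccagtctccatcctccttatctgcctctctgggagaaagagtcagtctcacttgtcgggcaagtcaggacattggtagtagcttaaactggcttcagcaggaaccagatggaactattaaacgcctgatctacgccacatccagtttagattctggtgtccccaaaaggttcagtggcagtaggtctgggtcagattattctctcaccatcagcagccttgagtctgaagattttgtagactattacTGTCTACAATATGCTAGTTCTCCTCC
Igkv6-25: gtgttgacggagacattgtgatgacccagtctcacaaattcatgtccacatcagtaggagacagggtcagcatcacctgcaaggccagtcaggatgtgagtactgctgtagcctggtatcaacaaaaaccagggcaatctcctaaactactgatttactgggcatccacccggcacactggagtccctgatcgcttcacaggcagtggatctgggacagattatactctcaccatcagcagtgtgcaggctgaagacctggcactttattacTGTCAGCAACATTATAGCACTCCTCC
Igkv10-96: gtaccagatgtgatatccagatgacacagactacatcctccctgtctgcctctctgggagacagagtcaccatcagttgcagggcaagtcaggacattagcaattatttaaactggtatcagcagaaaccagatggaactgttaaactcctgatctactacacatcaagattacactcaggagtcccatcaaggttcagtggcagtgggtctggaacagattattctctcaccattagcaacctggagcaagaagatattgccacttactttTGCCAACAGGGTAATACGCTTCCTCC
Iglv1: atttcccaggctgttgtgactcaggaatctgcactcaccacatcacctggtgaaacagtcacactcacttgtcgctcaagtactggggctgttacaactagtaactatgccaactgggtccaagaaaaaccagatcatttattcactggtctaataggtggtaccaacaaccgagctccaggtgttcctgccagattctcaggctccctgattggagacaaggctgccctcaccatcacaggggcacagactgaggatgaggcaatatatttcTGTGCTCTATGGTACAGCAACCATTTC
Ighv1-80: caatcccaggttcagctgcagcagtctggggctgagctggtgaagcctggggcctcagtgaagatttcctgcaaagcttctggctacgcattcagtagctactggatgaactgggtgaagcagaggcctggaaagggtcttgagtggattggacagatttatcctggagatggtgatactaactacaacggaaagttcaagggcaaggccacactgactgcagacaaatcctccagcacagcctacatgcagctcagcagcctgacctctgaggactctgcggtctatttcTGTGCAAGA

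V segments resemble each other, and how the authors' counting treated reads that match several of them was not stated, nor was the strand setting. Of the 50-base windows of a V transcript, a median of 76.8% occurred in no other GENCODE M21 gene. The lowest share over the 218 V genes was 2.58%, and 44 V genes had no shared window. The constant genes were easier to tell apart, with a median of 100% and a lowest share of 77.7% over 13 genes. All windows of Igkc, Ighm, Igha and Iglc1 were their own. Counts of single V segments are therefore uncertain, whereas sums over a locus and constant-gene counts depend less on this.

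Immunoglobulin counts were abundant in 4 of the 6 libraries, the 3 overexpression libraries and control replicate 3, and low in control replicates 1 and 2. Summed over all 264 segments, controls 1 to 3 had 1366, 508 and 8509 counts and overexpression replicates 1 to 3 had 6440, 30426 and 21480. In CPM, counts scaled to the library total, these were 32.7, 12.01 and 209 CPM in the controls and 164, 922 and 582 CPM in overexpression. The groups overlapped, since control replicate 3 was above overexpression replicate 1. Group means were 84.7 ± 108 CPM in the controls and 556 ± 379 CPM in overexpression (SD, n = 3), a log2 ratio of means of 2.71. Without control replicate 3 the log2 ratio was 4.63.

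**Figure D1:**
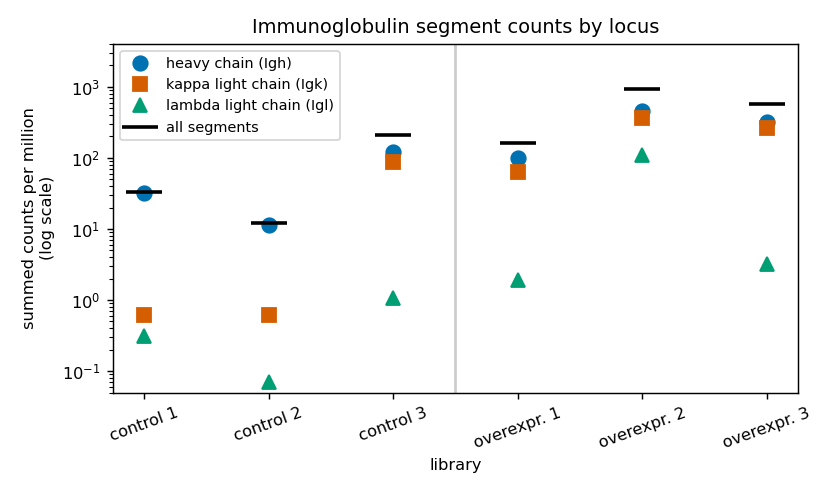
Summed CPM, counts scaled to library total (log scale), for the Igh, Igk and Igl segments and for all segments, 1 point per library. Control replicates 1 and 2 had 0.623 and 0.615 CPM of Igk segments, whereas control replicate 3 had 87.0 CPM, above the 63.5 CPM of overexpression replicate 1.

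Kappa counts divided the libraries in the same way. Igk segments had 26, 26 and 3536 counts in controls 1 to 3 and 2492, 11879 and 9725 in overexpression replicates 1 to 3. Control replicate 3 again lay inside the overexpression range. The constant gene Igkc (chr6:70726435-70726966), which ends every kappa chain, had 17, 14 and 2012 counts in the controls and 1421, 6555 and 5561 in overexpression. Igl segments had 13, 3 and 43 counts in the controls and 74, 3625 and 119 in overexpression. The lambda groups did not overlap, and the overexpression mean came almost wholly from replicate 2: the log2 ratio of means was 6.32 with it and 2.41 without it.

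Kappa was the main light chain in every library, which is the known usage in mice. Igkc held 98.7% (exact Clopper-Pearson 95% interval 98.1 to 99.1) of 2039 light-chain constant counts in control replicate 3. In overexpression replicates 1 and 3 it held 96.7% (95.7 to 97.6) of 1469 and 98.6% (98.2 to 98.9) of 5642. In overexpression replicate 2 the share was lower, 81.7% (80.8 to 82.6) of 8022, and the interval did not reach those of the other 3 libraries. Control replicates 1 and 2 had 22 and 16 light-chain constant counts, too few to compare. These intervals cover counting error only.

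The lambda counts of overexpression replicate 2 fell mostly on 1 V, 1 J and 1 C gene. Iglv1 had 7, 0 and 5 counts in the controls and 15, 1936 and 23 in overexpression. The joining segment Iglj1 had 0, 0 and 1 counts in the controls and 2, 161 and 3 in overexpression. The constant gene Iglc1 (chr16:19061618-19062071) had 2, 0 and 12 counts in the controls and 26, 1413 and 33 in overexpression. All 3 genes were thus high in the same library. The other lambda segments were low there: Iglv2 and Iglv3 had 50 and 9 counts in that library, Iglc2 had 45, Iglc3 had 9, and Iglc4 had 0 in all libraries. The V exons of Iglv1 and Iglv2 are 96.4% identical, so the Iglv2 counts are uncertain.

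Among the heavy-chain constant genes, IgM was the one present in every library in quantity. Ighm (chr12:113418558-113422730) had 1210, 442 and 1253 counts in the controls and 1608, 1872 and 2204 in overexpression, which was 23.4 ± 11.3 and 52.4 ± 10.1 CPM (SD, n = 3). In control replicates 1 and 2 no other constant gene had more than 73 counts. Control replicates 1 and 3 had nearly equal Ighm, 29.0 and 30.8 CPM, although Igkc was 0.407 CPM in the former and 49.5 CPM in the latter. Ighd, the IgD gene, had 23, 10 and 36 counts in the controls and 26, 19 and 12 in overexpression, with overlapping groups.

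V segment counts did not accompany Ighm in the libraries low in kappa. Over all 113 heavy-chain V genes, control replicate 1 had 0 counts beside its 1210 Ighm counts, and a count of 0 allows up to 3. Control replicate 2 had 5 V counts beside 442 Ighm counts. In control replicate 3 and overexpression replicates 1 to 3 the heavy-chain V counts were 710, 420, 2544 and 1604. Counts per kb of exon, summed over V and divided by the same sum over the constant genes other than Ighm and Ighd, gave ratios of 1.42, 1.46, 1.13 and 1.04 in these 4 libraries. For kappa, the V to Igkc ratio per kb was 1.05, 1.06, 1.12 and 1.04. With Ighm and Ighd included, the heavy-chain ratios were 0.952, 0.704, 0.974 and 0.819, so that the value of overexpression replicate 1 depended most on this choice. All these heavy-chain ratios also depend on the annotated exon lengths, which run from 1326 bases for Ighg2c to 2678 for Ighg2b.

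The switched classes had at most 73 counts per gene in control replicates 1 and 2, where light chains were low too. Ighg2c, the IgG2c gene of C57BL strains, had 73, 8 and 825 counts in the controls and 388, 6584 and 3792 in overexpression. Ighg2b had 0, 0 and 1808 counts in the controls and 335, 1119 and 1094 in overexpression, so that its highest library was a control. Igha, the IgA gene, had 7, 0 and 191 counts in the controls and 993, 2274 and 2113 in overexpression, and every overexpression library lay above every control library. Ighg1 had 0, 0 and 11 counts in the controls and 34, 233 and 588 in overexpression, also without overlap. Ighg3 had at most 45 counts in any library, and Ighe, the IgE gene, had 0 in all 6.

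The make-up of the switched constant genes differed between libraries. Of the switched constant counts in control replicate 3, Ighg2b held 63.3% (exact Clopper-Pearson 95% interval 61.6 to 65.1) of 2854 and Igha 6.69% (5.80 to 7.67). In overexpression replicate 1 Igha led with 56.7% (54.4 to 59.1) of 1750. Ighg2c led in overexpression replicates 2 and 3, with 64.3% (63.4 to 65.3) of 10236 and 49.7% (48.6 to 50.8) of 7632. The leading gene by counts thus differed between these libraries, apart from replicates 2 and 3. With the 4 IgG genes summed, IgG exceeded IgA in control replicate 3 and overexpression replicates 2 and 3, with 2663, 7962 and 5519 counts against 191, 2274 and 2113. In overexpression replicate 1 IgA had 993 counts and IgG 757, but per exon length IgG held 25.8% and IgA 22.3% of the heavy-chain constant genes. By counts per exon length, Ighg2b still led in control replicate 3 with 48.9% against 45.1% for Ighg2c. Igha led in overexpression replicate 1 with 46.3%, and Ighg2c led in replicates 2 and 3 with 78.4% and 66.4%. The annotated exons of Ighg2b and Igha sum to 2678 and 2668 bases and those of Ighg2c to 1326. Those of Ighg1 and Ighg3 sum to 2592 and 2512, so division by length raises Ighg2c most among the switched genes. Whether the annotated lengths match the messages counted was not tested.

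**Figure D2:**
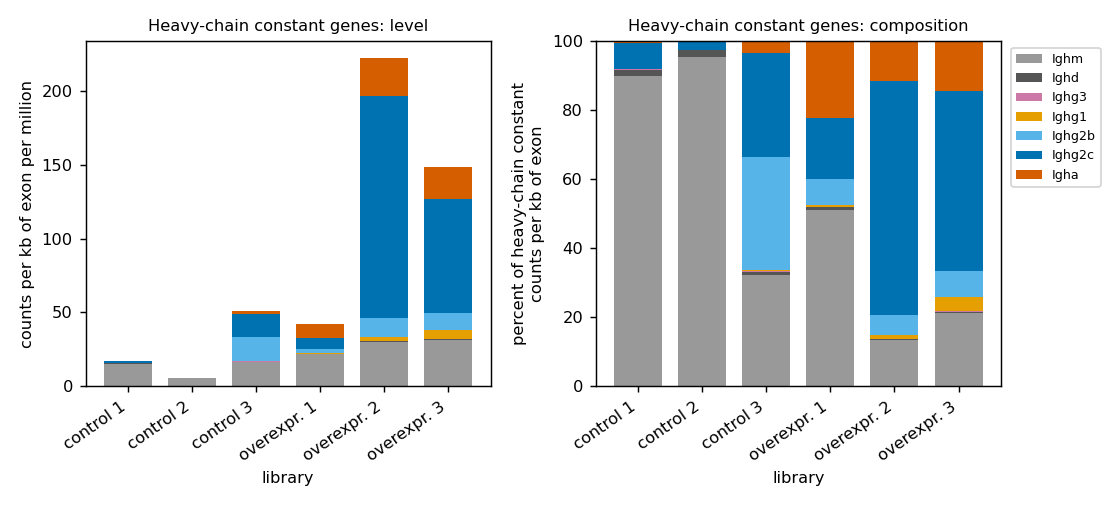
Heavy-chain constant genes in each library, as CPM per kb of exon (left, stacked) and as percent of their sum (right). Ighm makes up 90.04% and 95.4% of the sum in control replicates 1 and 2, 32.2% in control replicate 3, and 51.1%, 13.5% and 21.3% in overexpression replicates 1 to 3.

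V segment use was broad in number and uneven in amount. With at least 3 counts taken as detected, 1, 3 and 39 of 218 V segments were detected in controls 1 to 3 and 65, 82 and 104 in overexpression replicates 1 to 3. Control replicate 3 thus had fewer V segments than overexpression replicate 1 although its V counts were higher, 1439 against 1024 for kappa and 710 against 420 for heavy chain. Thinned by calculation to the smallest library total, the numbers for these 2 libraries were 35.6 and 61.2. Over the 6 libraries, 86 V segments were detected in none, 43 in 1, 37 in 2, 32 in 3, 19 in 4, 1 in 5 and 0 in 6.

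A few segments held most of the V counts of each library. Among kappa V counts, Igkv4-80 held 33.7% (exact Clopper-Pearson 95% interval 31.3 to 36.2) in control replicate 3. Igkv9-120 held 46.8% (43.7 to 49.9) in overexpression replicate 1, Igkv6-25 held 38.9% (37.5 to 40.2) in replicate 2 and Igkv10-96 held 34.4% (32.96 to 35.9) in replicate 3. The leader of 1 library was scarce in others: Igkv4-80 had 485 counts in control replicate 3 and 3, 0 and 5 in overexpression. Igkv9-120 had 0 counts in all 3 control libraries and 479, 102 and 3 in overexpression. Igkv6-25 had 2, 0 and 46 counts in the controls and 0, 1983 and 3 in overexpression. The 4 leaders are the kappa sequences printed above.

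**Figure D3:**
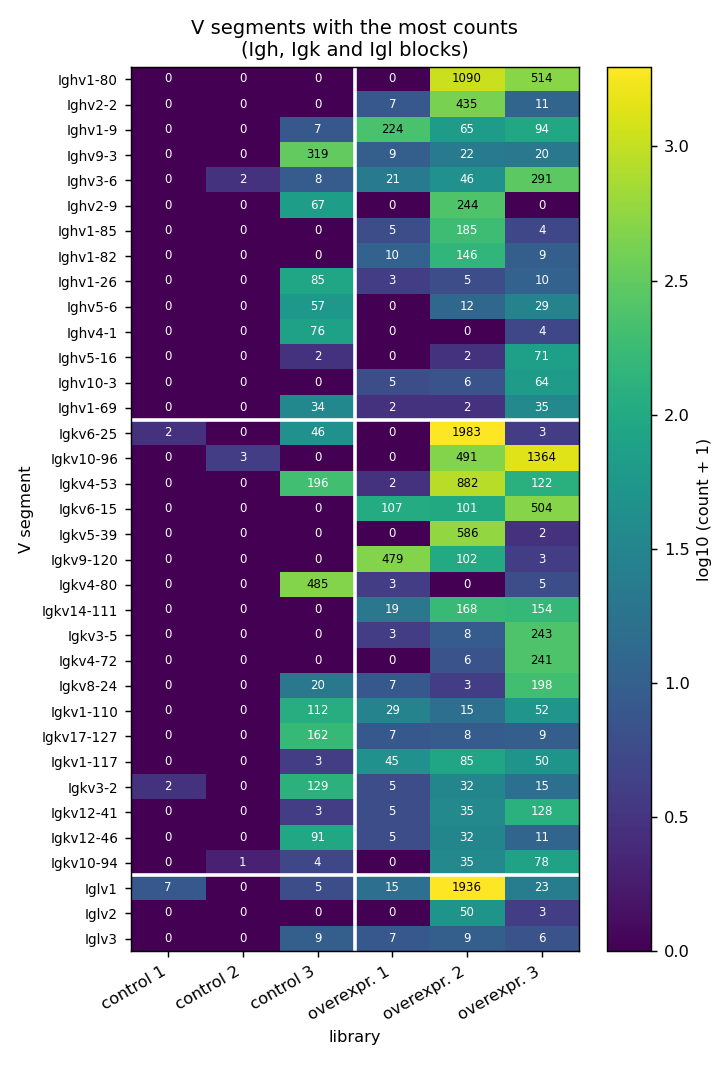
Raw counts of the 14 Igh, 18 Igk and 3 Igl V segments with the most counts (rows) in the 6 libraries (columns), coloured by log10 of count plus 1. The bright cells fall in different rows for different libraries, such as Igkv4-80 with 485 in control replicate 3 and Igkv10-96 with 1364 in overexpression replicate 3.

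The other kappa segments with the most counts also varied between libraries. Igkv10-96 had 0, 3 and 0 counts in the controls and 0, 491 and 1364 in overexpression, so it was absent from overexpression replicate 1 at this depth. Igkv4-53 had 196 counts in control replicate 3 and 2, 882 and 122 in overexpression. Igkv5-39 had 586 of its 588 counts in overexpression replicate 2. Igkv6-15 was at 0 in all controls and had 107, 101 and 504 counts in overexpression, and Igkv14-111 was likewise at 0 in controls with 19, 168 and 154. These last 2 segments separated the groups, whereas the leaders Igkv4-80 and Igkv6-25 did not.

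Heavy-chain V segments showed the same unevenness. Ighv9-3 led in control replicate 3 with 319 of 710 V counts (44.9%, exact Clopper-Pearson 95% interval 41.2 to 48.7), and had 9, 22 and 20 counts in overexpression. Ighv1-9 led in overexpression replicate 1 with 224 of 420 (53.3%, 48.4 to 58.2). Ighv1-80 led in both other overexpression libraries, with 1090 of 2544 (42.8%, 40.9 to 44.8) in replicate 2 and 514 of 1604 (32.0%, 29.8 to 34.4) in replicate 3. It had 0 counts in the remaining 4 libraries, so this leader was shared by just 2 libraries. Ighv1-80 has 81.5% of its 50-base windows to itself. Ighv2-2, Ighv2-9, Ighv1-85 and Ighv1-82 were highest in overexpression replicate 2, with 435, 244, 185 and 146 counts, and Ighv3-6 was highest in replicate 3, with 291.

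**Figure D4:**
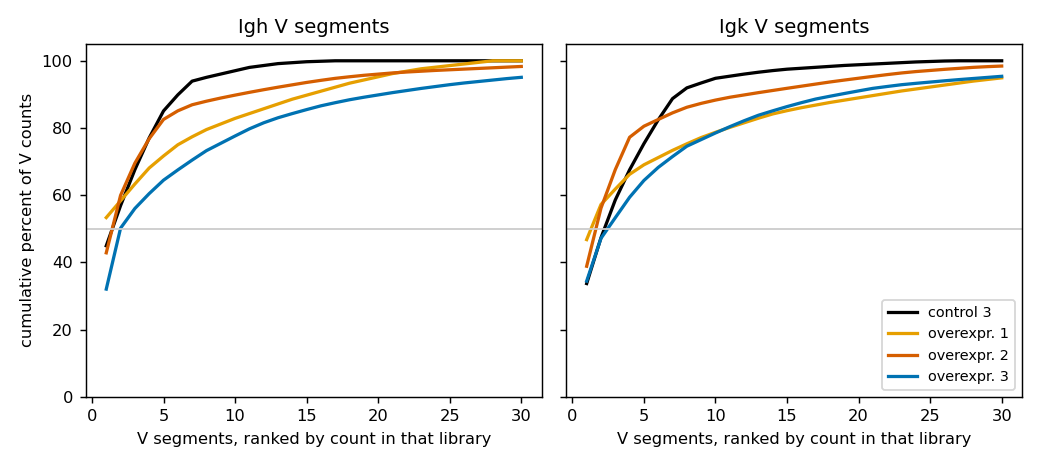
Cumulative percent of V counts against the rank of the V segment within its library, for Igh (left) and Igk (right), in the 4 libraries with at least 100 counts of each. From 1 to 3 segments reach 50% in every library, while 90% takes 7 heavy-chain and 8 kappa segments in control replicate 3 against 11 to 21 and 13 to 22 in the overexpression libraries.

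Pooling segments into subgroups, sets of related V genes that share the first number of the name, kept the kappa differences between libraries but gave the 3 overexpression libraries the same heavy-chain leader. The subgroup Ighv1 is large, with 53 of the 113 heavy-chain V genes, of which 40 had a count. It held 82.6% (exact Clopper-Pearson 95% interval 78.6 to 86.1) of heavy-chain V counts in overexpression replicate 1, 64.0% (62.1 to 65.9) in replicate 2 and 58.7% (56.3 to 61.2) in replicate 3. Most of these counts came from Ighv1-9 in replicate 1 (224 of 347) and from Ighv1-80 in replicates 2 and 3 (1090 of 1628 and 514 of 942). In control replicate 3 Ighv1 held 19.6% (16.7 to 22.7), below Ighv9. Among kappa segments, the leading subgroup was Igkv4 in control replicate 3 with 49.1% (46.4 to 51.7), Igkv9 in overexpression replicate 1 with 47.6% (44.5 to 50.7), Igkv6 in replicate 2 with 43.0% (41.7 to 44.4) and Igkv10 in replicate 3 with 36.4% (34.9 to 37.9). The 4 kappa leaders thus belonged to 4 subgroups.

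Overlap of the detected V segments was partial. Control replicate 3 shared 23, 29 and 30 of its 39 V segments with overexpression replicates 1 to 3, which was 59.0%, 74.4% and 76.9% of its list and 35.4%, 35.4% and 28.8% of theirs. Overexpression replicates 2 and 3 shared 68 segments, 82.9% of the 82 and 65.4% of the 104. Of 50 V segments with at least 50 counts in all, 15 had over 90% of their counts in 1 library. By CPM, 10 of the 50 were highest in control replicate 3, and 3, 18 and 19 in overexpression replicates 1 to 3.

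The kappa joining segments differ in 1 known sequence feature. They are printed from GENCODE M21 transcripts (chromosome 6, plus strand, 5′ to 3′). Capitals mark TTCGGNNNNGGN, the codons of the phenylalanine-glycine motif that follows the third complementarity-determining region. The pattern was searched on the printed strand, and 8 of all 14 J segments hold it.
Igkj1: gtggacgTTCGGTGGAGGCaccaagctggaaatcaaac
Igkj2: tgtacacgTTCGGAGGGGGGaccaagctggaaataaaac
Igkj3: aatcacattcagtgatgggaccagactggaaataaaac
Igkj4: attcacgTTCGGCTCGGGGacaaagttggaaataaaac
Igkj5: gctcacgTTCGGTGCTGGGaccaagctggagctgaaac
Igkj3, at chr6:70723223-70723260, was the 1 segment of these 5 without a match, and in mice it is known as a non-functional joining segment. It had 4 of the 560 kappa J counts, 0, 0 and 0 in control and 0, 2 and 2 in overexpression. Igkj1, Igkj2, Igkj4 and Igkj5 had 202, 148, 62 and 144 counts.

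Which of the functional kappa J segments led also differed. In control replicate 3, Igkj2 held 60 of 85 J counts (70.6%, exact Clopper-Pearson 95% interval 59.7 to 79.98). Igkj1 led in overexpression replicates 1 and 3 with 24 of 47 (51.1%, 36.1 to 65.9) and 104 of 203 (51.2%, 44.1 to 58.3). Igkj5 led in overexpression replicate 2 with 82 of 220 (37.3%, 30.9 to 44.0). For the heavy chain, J segments had 10, 14 and 72 counts in the controls and 69, 235 and 172 in overexpression, and D segments, which are very short, had at most 16 counts in any library, with 6 of 19 detected at all. Ighj1 had 4, 6 and 23 counts in the controls and 41, 54 and 35 in overexpression.

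Segments annotated as pseudogenes had almost no counts. The 164 immunoglobulin pseudogenes had 0, 0 and 1 counts in the controls and 2, 2 and 1 in overexpression, 6 in all, although they lie among the functional V genes. By locus, 71 of 113 heavy-chain, 76 of 102 kappa and 3 of 3 lambda V genes had at least 1 count in some library. In all, 179 of the 264 members had a count and 85 had none.

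Of the 179 members with a count, 52 had every overexpression library above every control library and 0 the reverse, where 5.84% of all genes with a count were higher so. Only 36 members, 20 V, 6 J and 10 C genes, passed the filter on low counts, and a segment can pass it through the group in which it is high, so these 36 do not stand for the class. In edgeR's quasi-likelihood test 0 of the 36 passed at an adjusted p of 0.05 after Benjamini-Hochberg adjustment over 19809 genes, where 0.00505% of all genes passed (Pde5a). At an unadjusted p under 0.05 there were 22, all higher in overexpression, where 2.25% of all genes were higher and 3.89% differed either way. Groups did not overlap in 21 of the 36, all higher, where 4.81% of all genes tested were higher in this way, 4.11% lower and 8.93% either. The DESeq2 Wald test called 17 of the 85 members to which it gave an adjusted p, all higher, against 0.371% of all genes. Since the class was taken up for a difference in this contrast, nothing is read from these shares. The median fitted log2 fold change over the 36 was 3.56, beside 0.00 over all genes tested.

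Igkv1-117, the segment for which the class was taken up, had 0, 0 and 3 counts in the controls and 45, 85 and 50 in overexpression. Its nearest relative, Igkv1-110, named here for that reason, had 0, 0 and 112 counts in the controls and 29, 15 and 52 in overexpression. The first separated the groups and the second had its highest count in a control. Their V exons differ at 10 of 313 bases (96.8% identity), and 50.1% of the 50-base windows of Igkv1-117 were its own. The last 300 bases of each exon, at chr6:68121528-68121827 and chr6:68270968-68271267, both plus strand, are shown with the differing bases in capitals, since reads away from those bases fit both.
Igkv1-117: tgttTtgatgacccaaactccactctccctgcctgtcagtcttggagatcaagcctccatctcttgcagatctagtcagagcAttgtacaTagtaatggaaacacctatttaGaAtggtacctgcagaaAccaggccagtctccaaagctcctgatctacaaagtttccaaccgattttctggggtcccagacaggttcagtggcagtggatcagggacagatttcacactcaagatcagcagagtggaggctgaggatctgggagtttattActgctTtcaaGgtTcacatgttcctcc
Igkv1-110: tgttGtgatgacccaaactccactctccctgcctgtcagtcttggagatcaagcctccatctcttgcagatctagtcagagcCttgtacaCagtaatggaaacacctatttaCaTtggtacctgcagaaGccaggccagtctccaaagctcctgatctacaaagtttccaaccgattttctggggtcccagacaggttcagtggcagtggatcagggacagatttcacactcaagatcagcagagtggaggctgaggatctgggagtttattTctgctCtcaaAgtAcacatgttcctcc

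Among the 12 segments with separate groups and the smallest p, those not described above had at most 82 counts in any library. Igkv3-12 had 22, 25 and 15 counts, Ighv1-81 had 15, 19 and 19, and Igkv4-91 had 15, 17 and 12, each with 0 in all 3 controls. Igkv12-44, Igkv6-32 and Igkv5-43 were also at 0 in the controls and had 13 to 33, 14 to 43 and 12 to 59 counts in overexpression. Igkv6-23 had 7 counts in control replicate 3 and 16 to 32 in overexpression. Igkj5 had 2, 2 and 7 counts in the controls and 11, 82 and 40 in overexpression. In all, 21 V segments were detected in all 3 overexpression libraries and at 0 in every control, and 19 were detected in all 3 and in control replicate 3. The share of all genes with either pattern was not computed, so nothing is read from these 2 counts.

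Genes outside the class were read as markers of the cells that make antibodies. Jchain, which encodes the chain that links IgM and IgA molecules and is made by plasma cells, had 23, 26 and 522 counts in the controls and 534, 2335 and 1680 in overexpression. It was low in the same 2 control libraries as Igkc. Of 12 plasma cell genes, all were tested, 0 passed in either direction in edgeR's quasi-likelihood test, 4 had an unadjusted p under 0.05, where 3.89% of all genes tested did, and 7 had overexpression libraries all above the controls, where 4.81% of all genes tested did. The summed list had 67.6, 61.8 and 76.8 CPM in the controls and 83.8, 152 and 119 CPM in overexpression. Xbp1, a transcription factor of secretory cells that other cells also express, had 58.7 ± 2.09 CPM in the controls and 63.6 ± 2.37 CPM in overexpression (SD, n = 3). Tnfrsf13b, a receptor for B cell survival factors, had 1.56 ± 0.424 and 2.35 ± 0.541 CPM. The part of plasma cell numbers in the immunoglobulin counts was not tested.

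Ms4a1 (CD20), a surface marker of B cells that plasma cells lose, was close to 0. It had 0, 3 and 4 counts in the controls and 6, 8 and 9 in overexpression. Cd79a, the antigen receptor subunit, had 6, 11 and 9 counts in the controls and 17, 41 and 18 in overexpression. Both were named after their values were seen. Of 12 B cell genes, 8 were tested, 0 passed and 2 had an unadjusted p under 0.05 in edgeR's quasi-likelihood test (3.89% of all genes tested). In 2 of the 8 all overexpression libraries were above the controls (4.81%). The summed level of that list was 16.3 to 24.1 CPM in the controls and 14.8 to 24.7 CPM in overexpression, with most counts from Ebf1, a transcription factor also found in striatal neurons. Bank1 and Cr2 had 55 to 132 and 21 to 41 counts over the 6 libraries, with overlapping groups.

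**Figure D5:**
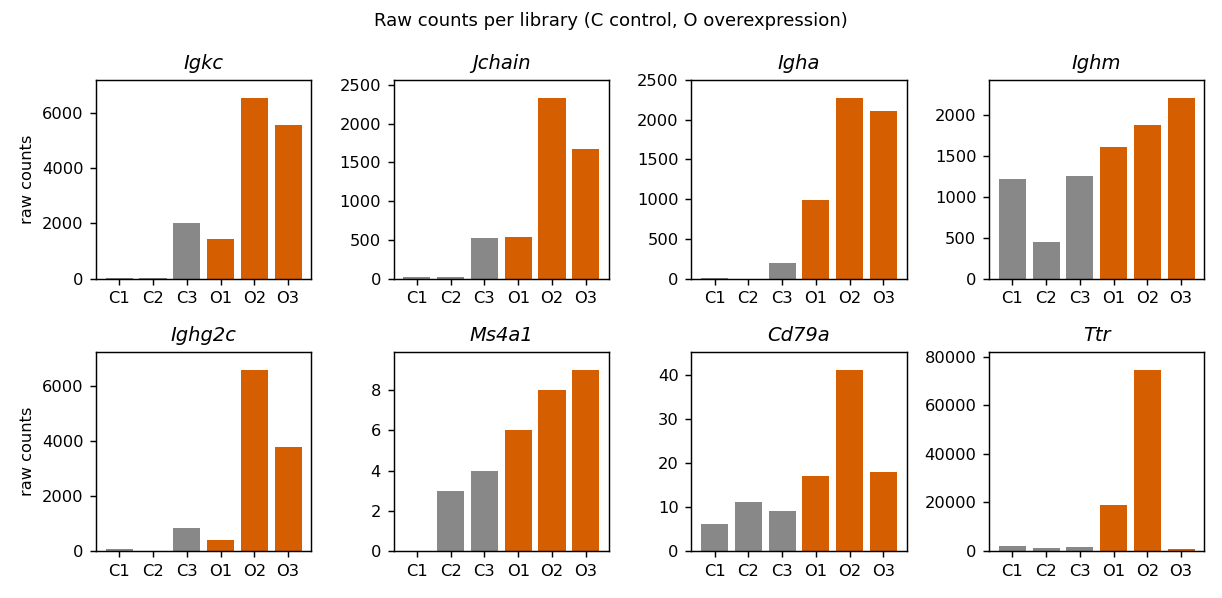
Raw counts in each library of Igkc, Igha, Ighm and Ighg2c (members), Jchain, the B cell genes Ms4a1 and Cd79a, and the choroid plexus gene Ttr; each panel has its own axis from 0. Jchain and Igkc share their low libraries, control replicates 1 and 2, whereas Ttr is high in overexpression replicates 1 and 2 and has 843 counts in replicate 3. Ms4a1 and Cd79a were named after their values were seen, and the summed level of the B cell list had overlapping groups.

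T cell receptor gene segments are the matching class in T cells. Their V segments had 51, 67 and 43 counts in the controls and 75, 49 and 59 in overexpression, and their constant genes had 284, 45 and 266 and then 199, 185 and 504. Among 14 T cell and cytotoxic lymphocyte genes, 10 were tested, 0 passed in edgeR's quasi-likelihood test, 6 had an unadjusted p under 0.05 (3.89% of all genes tested) and 7 had overexpression libraries all above the controls (4.81%). The list summed to 47.9 to 77.3 CPM in the controls and 60.6 to 91.0 CPM in overexpression. The coreceptor gene Cd8a had 0, 11 and 34 counts in the controls and 35, 55 and 54 in overexpression. Trbc2 had 235, 25 and 221 counts in the controls and 146, 119 and 415 in overexpression. Cd4, which other brain cells also express, had 1547 to 3175 counts with overlapping groups.

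The genes that rearrange and switch immunoglobulin loci were scarce. Of 8 such genes, 6 had a count in some library and 1, the uracil glycosylase Ung, was tested, with 65 to 77 counts in each library. Rag1, part of the recombinase, had 2 to 6. Of 11 genes for B cell survival and homing factors, 7 were tested and 0 were called by edgeR, where 0.00505% of all genes were. Among the 7, 1 had an unadjusted p under 0.05 (3.89% of all genes tested) and 1 had overexpression libraries all above the controls (4.81%). The stromal chemokine Cxcl12 had 1113 to 1904 counts with overlapping groups. Of 9 antibody receptor and transport genes, 7 were tested, 0 passed, 4 had an unadjusted p under 0.05 (3.89% of all genes tested) and 5 had overexpression libraries all above the controls (4.81%). Fcgr3, an IgG receptor of microglia and macrophages, had 12.1 ± 1.77 CPM in the controls and 15.9 ± 2.97 CPM in overexpression (SD, n = 3), with overlapping groups. Pigr, which carries IgA and IgM across epithelia, had 2 counts in control replicate 1 and 0 in the other 5 libraries.

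Blood and neighbouring tissues also varied between libraries. The 5 red blood cell genes summed to 186, 145 and 147 CPM in the controls and 117, 209 and 151 CPM in overexpression. None of the 10 choroid plexus, 8 meningeal and 5 red blood cell genes passed in edgeR's test, and 5, 0 and 0 of them had an unadjusted p under 0.05, where 3.89% of all genes tested did. The 10 choroid plexus genes summed to 73.0, 52.1 and 53.1 CPM in the controls and 536, 2455 and 34.5 CPM in overexpression. The log2 ratio of summed immunoglobulin means was 2.71 with all libraries. Without overexpression replicates 1 and 2, the libraries high in choroid plexus genes, it was 2.78, which rests on overexpression replicate 3 alone (582 CPM). The 2 libraries left out lay below and above replicate 3, at 164 and 922 CPM. The 8 meningeal fibroblast genes summed to 39.6, 42.8 and 37.4 CPM in the controls and 56.9, 134 and 45.5 CPM in overexpression. Of these, the growth factor gene Igf2 had 719 to 952 counts in the controls and 1415, 3525 and 824 in overexpression. The part of blood, choroid plexus and meninges in the immunoglobulin counts was not tested.

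The genes outside the class whose log2 CPM ran most like the summed immunoglobulin level over the 6 libraries were Plcd1, Snrpb2, Parp10, H2-Eb1 and AW112010, with Pearson r from 0.988 to 0.994. They were picked from 16028 genes with a mean of at least 1 CPM, so values of this size over 6 points are no finding. H2-Eb1, a class II antigen-presentation gene, had 0.382, 0.268 and 1.31 CPM in the controls and 1.57, 4.51 and 3.47 CPM in overexpression. Jchain stood at rank 20 with r = 0.974.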

How the data were processed

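RNA-seq was deposited for 3 control and 3 overexpression samples, grouped by their titles. Per the labels' protocols, RNA was isolated with Trizol and made into strand-specific TruSeq libraries. The authors deposited raw counts per Ensembl gene; FastQC 0.11.5, STAR 2.5.3a, Cuffnorm, DESeq 1.16.1 and build mm10 are named in the submitters' processing notes, without roles. The counting program, its treatment of reads that fit several genes, and the read length were not stated. Of 55335 identifiers, 55154 matched GENCODE M21, from which biotypes, coordinates and transcripts were taken.

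Sums and shares were computed from raw counts and library totals, and single-gene CPM outside the class from TMM-adjusted sizes. The all-gene test was edgeR 4.0.16 (R 4.3.3) with TMM, filterByExpr and robust quasi-likelihood F-tests, two-sided, checked on simulated counts. DESeq2 1.42.0 was an alternative. Members, lists and tests were chosen with earlier results of these data known. Named were all constant genes, the 8 heavy-chain, 8 kappa and 3 lambda V segments with most counts, up to 12 members with separate groups and the smallest p, up to 3 genes per list, and the 5 genes most like the class. Some genes of these lists are not reported here. The labels do not say that replicates came from separate animals, so a p-value reflects only variation among these samples and that variation may be technical.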

Additional observations from a re-analysis of the deposited data

How the results depend on the processing

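With another normalization (DESeq2 or upper-quartile factors) or the stricter filter, the counts of calls and the median over the tested segments stayed within 1.5 times or within the spread of the replicates. Leaving out overexpression replicates 1 and 2, and shares per exon length, were chosen after seeing the data. The number of genes called, 1 with edgeR, was 86 with DESeq2, 3 without a filter and 5 without overexpression replicates 1 and 2, and 1 to 2 when 1 library was left out, 2 without control replicate 2 or 3. Of immunoglobulin segments, 17 were called by DESeq2, 1 without overexpression replicates 1 and 2, and 0 whichever single library was left out. The median log2 fold change of the tested segments was 2.85 to 7.24 when 1 library was left out, highest without control replicate 3. The log2 ratio of summed means then ran from 2.14 to 4.63 for all segments. It ran from 1.91 to 3.74 for Igh and from 2.39 to 8.53 for Igk, both highest without control replicate 3. For Igl it ran from 2.41 to 7.65, lowest without overexpression replicate 2. Without overexpression replicates 1 and 2, which leaves 1 overexpression library, it was 2.75 for Igl, 2.52 for Igh and 3.16 for Igk. With all libraries the values for Igh and Igk were 2.40 and 2.96. The mean IgA share in overexpression, 23.2% of counts, was 16.1% per exon length, by the division by length itself. The mean number of V segments detected in overexpression, 83.7, was 44.0 with at least 10 counts, and the mean share of the leading heavy-chain V, 42.7%, was 68.4% by subgroup, both by construction. For the other changes the cause was not tested. A further 114 recomputed values of the main results moved by less than 1 SD between replicates or, for counts of calls, by no more than 1.5 times, and no direction was reversed. That SD was wide among the controls, so these 114 include large moves: the control mean IgG share was 23.9% with all libraries and 3.76% without control replicate 3.

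The replicate numbers are not said to pair samples, and deviations of same-numbered libraries correlated at -0.02, 0.03 and 0.29, the best match only for number 3. With the replicate block 3 genes were called, 2 of them immunoglobulin segments, Igkv6-15 and Ighv3-6. The libraries low in light chains had too few counts for shares of V, J or light-chain genes.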
